A study of Rattus norvegicus with 30 samples.

Results

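The nuclear genes that encode the subunits of mitochondrial complexes I to V, together with their named assembly factors, were followed through rat testis maturation and organotypic culture. Members were the genes whose symbol begins with Nduf, Sdha, Sdhb, Sdhc, Sdhd, Uqcr, Cox4, Cox5, Cox6, Cox7, Cox8 or Atp5, carries no pseudogene suffix, and has a mean of at least 0.5 FPKM in at least 1 group (FPKM, the fragments of a transcript divided by its length and by the library total). The rule gave 81 of the 17322 genes measured. Testes of Wistar Han rats were taken at 6 ages between 8.5 and 53.5 days postpartum (dpp), with 3 libraries per age from different testes. At 14.5 dpp 2 libraries were used, and the column labelled as an outlier was left out. The study excluded that sample because its profile differed from the other replicates, and its column is listed at 0 for every gene. For culture, testes of 8.5 dpp rats were cut into 6 fragments and kept on agarose gels at the gas-liquid interphase at 34 °C under 5% CO2, in αMEM with knock-out serum replacement, retinol and vitamin E, and sampled after 6 days (D6, equal in age to 14.5 dpp), 16 days (D16, 24.5 dpp), 22 days (D22, 30.5 dpp) and 28 days (D28, 36.5 dpp). The remaining age, 53.5 dpp, has no equal in culture. Each culture time has 3 libraries, and each of them pools 12 explants, from which the necrotic centre had been removed. The labels name no engineered allele and no other agent in any group.

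Respiratory complex I passes electrons from NADH, and complex II from succinate, to ubiquinone. Complex III hands them on to cytochrome c, complex IV gives them to oxygen, and complex V uses the resulting proton gradient to make ATP. Complexes I, III, IV and V also contain subunits encoded in mitochondrial DNA, which were not analysed here. In the seminiferous epithelium, spermatogonia lie close to the blood supply, whereas spermatocytes and spermatids behind the blood-testis barrier take up lactate made by Sertoli cells and respire it, and they replace several widely expressed mitochondrial proteins by germ-cell isoforms.

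The 81 members comprised 7 core subunits of complex I, 24 accessory subunits and 7 assembly factors of the same complex, 4 subunits and 3 assembly factors of complex II, 8 genes of complex III, 11 of complex IV, 15 of complex V and the 2 testis isoforms Cox6b2 and Cox8c. A further 10 genes had the right symbol but stayed under the minimum. Of these, Atp5me, Atp5pb, Cox8b, Cox7a2, Ndufa12, Ndufa1, Cox6c and Cox6b1 are listed at 0 in all 29 libraries. Most of these encode subunits that every respiring cell uses, so that a 0 in these files can be a failed estimate of level and is not read as absence. The members just outside the limit were Ndufb2, with a highest group mean of 0.457 FPKM, and Cox6a2, with 0.222 FPKM, and those just inside were Ndufaf6 with 0.842 FPKM, Ndufab1 with 1.18 FPKM and Atp5mk with 4.80 FPKM. Above 0 in every library were 62 members, and 19 are listed at 0 in at least 1 library, from 2 to 14 members per library.

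The summed FPKM of the libraries ranged from 292262 to 380335, replicates correlated with Pearson's r of 0.965 to 0.985 over 12762 genes, and the depth in reads is unknown. The 5 spermatocyte markers summed to 15.8 to 17.1 FPKM at 8.5 dpp, 30.7 to 68.9 at 14.5 dpp and 1598 to 2274 at 24.5 dpp, and to between 2043 and 2881 FPKM in every older library, whereas all cultured libraries lay between 23.0 and 39.4 FPKM. The 5 spermatid markers summed to at most 22.7 FPKM up to 24.5 dpp, to 323 to 1159 at 30.5 dpp and to 16486 to 21858 at 53.5 dpp, against at most 8.30 FPKM in culture, where Prm1 is listed at 0 in every library. The 6 Sertoli cell markers summed to 1302 to 1848 FPKM at 14.5 dpp, 468 to 606 at 36.5 dpp and 3595 to 4291 at D28. The sum does not stand for each marker. At D28, 1 of the 6 passed as higher than at 14.5 dpp and 2 as lower, with a median difference of 0.16 on the log2 scale. Against 36.5 dpp all 6 were higher at D28. In such whole tissue, fewer cells of a type and less RNA per cell cannot be told apart.

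**Figure D1:**
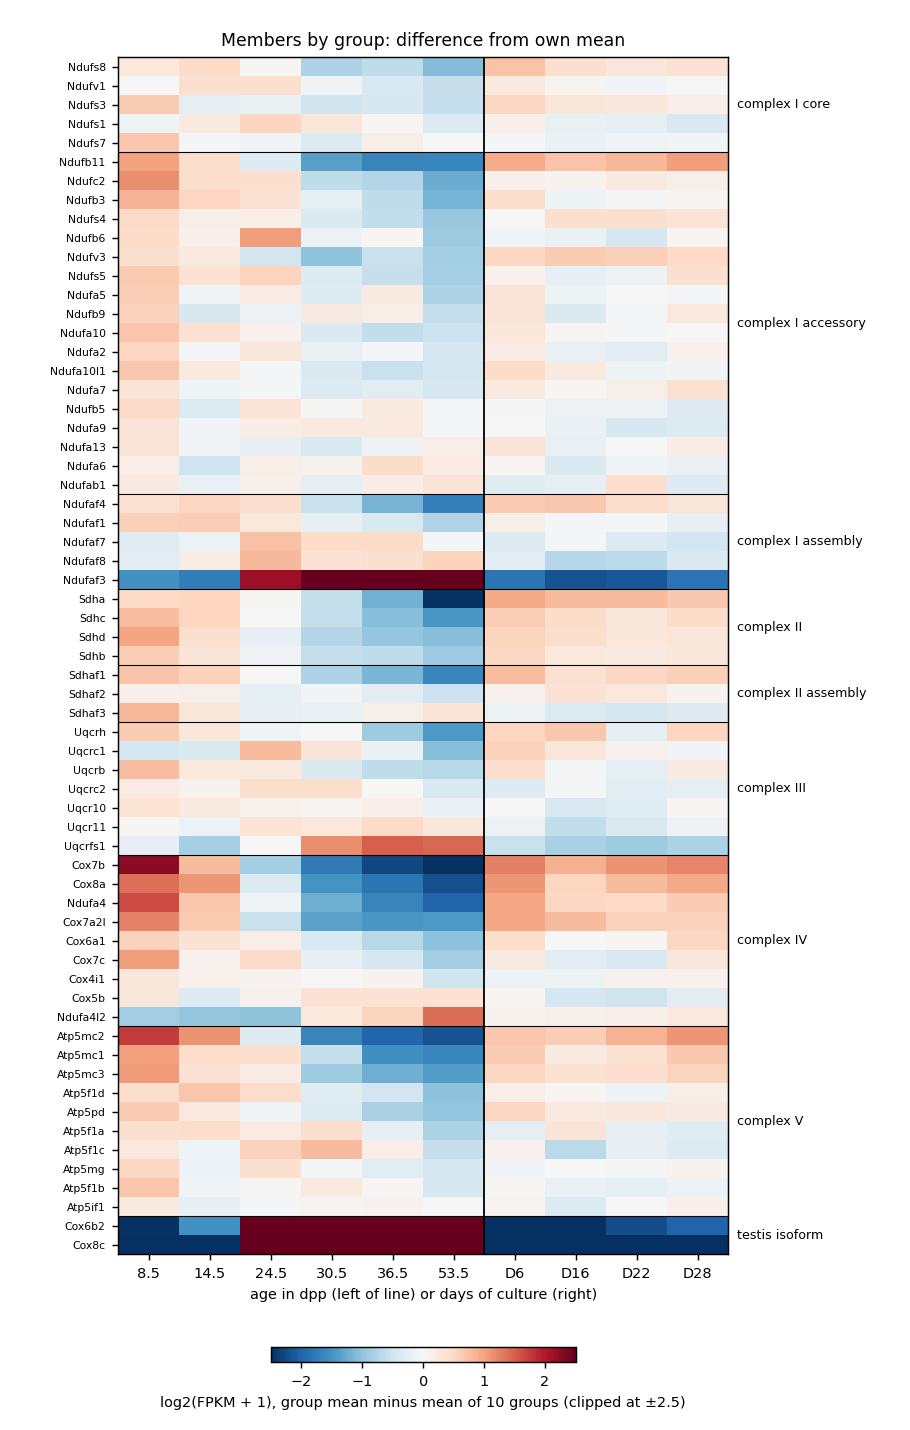
Each row is a member above 0 in every library or a testis isoform, with 1 member not drawn, and each column one of the 10 groups; colour gives the group mean of log2(FPKM + 1) minus the gene's own mean over the 10 groups. The in vivo ages lie left of the line and the culture times right of it. Cox8c, Cox6b2 and Ndufaf3 turn from low to high at 24.5 dpp and stay low in culture. Of the 62 members above 0 in every library, 53 had a lower mean FPKM at 53.5 than at 8.5 dpp. In 35 of the 62 every culture mean lay above that of 36.5 dpp, and in 16 every one lay below it.

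In FPKM without further scaling, most members above 0 in every library were highest in the youngest testis. Among the 62 members above 0 in every library, 40 had their highest in vivo mean at 8.5 dpp, 6 at 14.5 dpp (Atp5f1a, Atp5f1d, Ndufaf1, Ndufaf4, Sdha and Sdhaf2), 6 at 24.5 dpp (Ndufaf7, Ndufaf8, Ndufb6, Ndufs1, Ndufv1 and Uqcrc1), 4 at 30.5 dpp (Atp5f1c, Ndufaf3 and Uqcrc2 among them), 4 at 36.5 dpp (Cox5b, Ndufa6, Uqcr11 and Uqcrfs1) and 2 at 53.5 dpp (Ndufa4l2 and Ndufab1). The mean at 53.5 dpp lay below that at 8.5 dpp in 53 of the 62. No such counts were made over all genes, whose median difference was also below 0 in each step after 14.5 dpp (-0.13, -0.32, -0.18 and -0.25). In each of these steps more members rose than fell once libraries were scaled by median ratios, as given below. Together the 81 members held 2.55% ± 0.05 of the summed FPKM at 8.5 dpp (SD, n = 3), 2.05% ± 0.01 at 14.5 dpp (n = 2), 2.29% ± 0.23 at 24.5 dpp, 2.35% ± 0.13 at 30.5 dpp, 2.10% ± 0.01 at 36.5 dpp and 1.59% ± 0.08 at 53.5 dpp (n = 3 each). Explants of D6 and D28 held 2.06% ± 0.20 and 1.99% ± 0.26, and those of D16 and D22 held 1.76% ± 0.07 and 1.78% ± 0.14 (n = 3 each). These shares include the testis isoforms Cox8c and Cox6b2. At 36.5 dpp these held 1200 to 1420 and 429 to 506 FPKM, of 6905 to 7138 FPKM for all members. In culture they held at most 2.77 and 11.9 FPKM. Like shares at 36.5 dpp and D28 thus do not mean like levels of the other members. Every culture mean lay above the 36.5 dpp mean in 35 of the 62 members and below it in 16, and every culture mean lay below that of 8.5 dpp, the tissue of origin, in 46. These counts were made neither over all genes nor after scaling between libraries. At D28 alone, 56.4% of all genes tested passed as higher than at 36.5 dpp and 29.8% as lower. The span between the highest and the lowest of the 10 group means was 44.1-fold for Ndufaf3, 34.2-fold for Cox7b, 15.6-fold for Atp5mc2, 13.2-fold for Ndufa4, 12.5-fold for Cox8a and 12.3-fold for Sdha. It was only 1.47-fold for Atp5if1, the inhibitor of the ATP synthase, and 1.69-fold for Cox4i1, a nuclear-encoded subunit of complex IV.

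Cox8c and Cox6b2, the testis isoforms of complex IV subunits, were low up to 14.5 dpp and in culture and high from 24.5 dpp onward. Cox8c (gene ID 360229), the testis form of subunit VIII, is listed at 0, 0 and 0.35 FPKM at 8.5 dpp and at 1.66 and 2.67 FPKM at 14.5 dpp. It was at 578, 778 and 404 FPKM at 24.5 dpp, 1563, 1313 and 1217 FPKM at 30.5 dpp, 1418, 1420 and 1200 FPKM at 36.5 dpp and 1268, 1163 and 924 FPKM at 53.5 dpp. The D6 explants held 0.705, 1.03 and 0 FPKM and the D16 explants 0.229, 0 and 0 FPKM. Those of D22 held 2.06, 0.768 and 1.45 FPKM and those of D28 2.77, 1.23 and 2.02 FPKM. Every library from 24.5 dpp onward thus lay at 404 FPKM or more, and every cultured library at 2.77 FPKM or less. On the log2(FPKM + 1) scale, which understates changes of low genes, Cox8c rose by 1.499 (SE 0.24, adjusted p = 0.00029, limma over all genes) from 8.5 to 14.5 dpp, by 7.51 (SE 0.24, adjusted p = 3.1e-11) from 14.5 to 24.5 dpp and by 1.26 (SE 0.22, adjusted p = 0.000129) to 30.5 dpp. The later in vivo steps did not pass the test, with -0.02 to 36.5 dpp (adjusted p = 0.969) and -0.28 to 53.5 dpp (adjusted p = 0.332).

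Its widely expressed counterpart Cox8a (gene ID 171335) moved in the opposite direction. Cox8a was at 258, 273 and 215 FPKM at 8.5 dpp, 247 and 169 at 14.5 dpp, 71.0, 68.3 and 85.7 at 24.5 dpp, 43.3, 26.1 and 31.9 at 30.5 dpp and 19.7, 19.1 and 20.7 at 53.5 dpp. It fell by 1.44 (SE 0.19, adjusted p = 2.13e-05) from 14.5 to 24.5 dpp and by 1.15 (SE 0.17, adjusted p = 4.3e-05) to 30.5 dpp. The share of Cox8c in the summed mean FPKM of the pair went from 0.0469% at 8.5 dpp and 1.03% at 14.5 dpp to 88.7% at 24.5 dpp, 97.6% at 30.5 dpp and 98.3% at 53.5 dpp. Among the explants it was lowest at D16, with 0.0548%, followed by 0.277% at D6, 0.861% at D22 and 1.08% at D28. At D28, Cox8a was at 211, 163 and 176 FPKM, and all 3 values lay above each of the 36.5 dpp libraries (28.5, 25.4 and 24.3 FPKM).

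Cox6b2 (gene ID 654441), the testis form of subunit VIb, followed the same course at a lower level. It was at 9.46 and 12.3 FPKM at 14.5 dpp, 233, 247 and 158 FPKM at 24.5 dpp and 484, 504 and 468 FPKM at 53.5 dpp. Cultured libraries ranged up to 11.9 FPKM, at D6, and 2 of them are listed at 0, as is 1 library at 8.5 dpp. It rose by 4.15 (SE 0.80, adjusted p = 0.00044) from 14.5 to 24.5 dpp. The widely expressed Cox6b1 is listed at 0 throughout, so that no ratio could be formed. Over the 10 group means, and among the 10952 genes with a range of at least 1 on the log2 scale, Cox6b2 was most like Cox8c (r = 0.997), Brdt (r = 0.997), a testis bromodomain protein, and Rpl39l1 (r = 0.996), and Cox8c most like Brdt (r = 0.999), Hspa2 (r = 0.998) and Ybx2 (r = 0.998), of which Hspa2 is itself one of the spermatocyte markers. All these points share their libraries, and the values are a description.

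**Figure D2:**
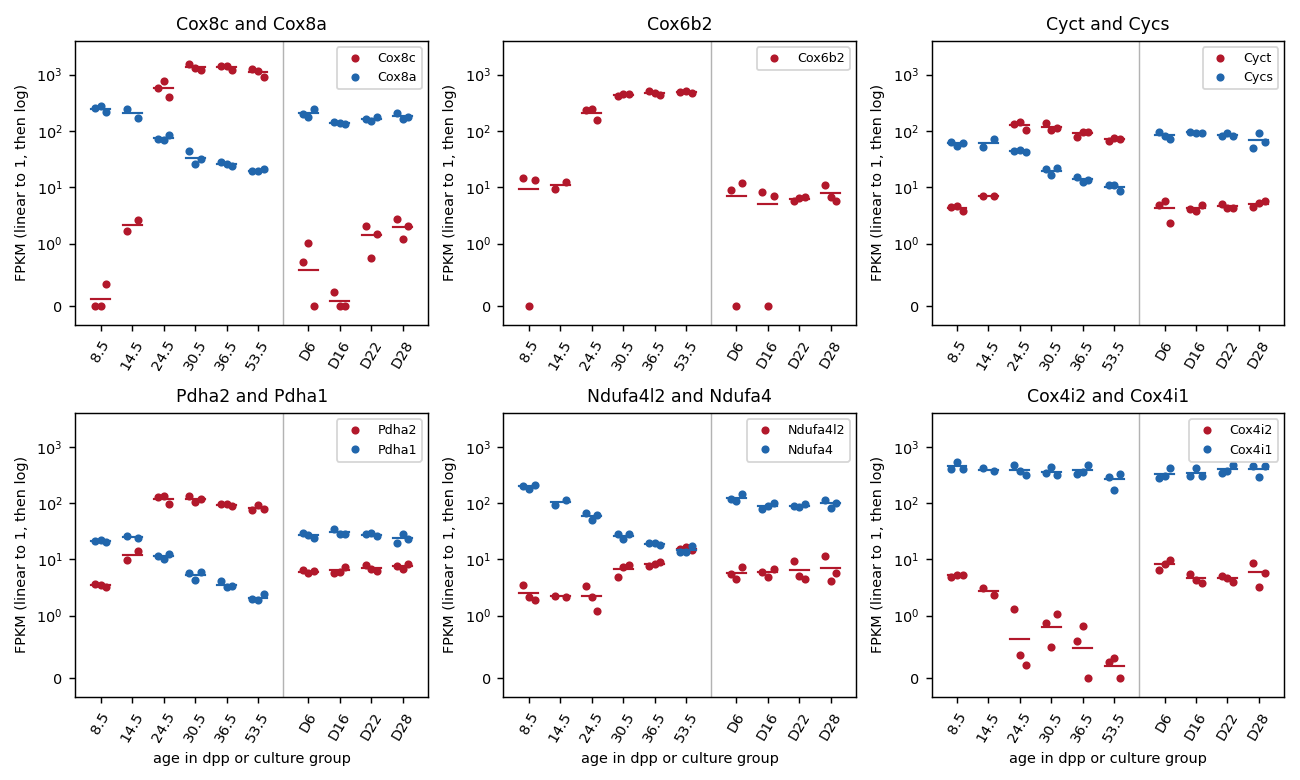
FPKM of restricted and widely expressed members of isoform pairs, one point per library, by age in vivo and by days of culture; the axis is linear up to 1 and logarithmic above. Cox8c overtakes Cox8a between 14.5 and 24.5 dpp and stays under 3 FPKM in all 12 cultured libraries, where Cox8a is at 134 FPKM or more.

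The 150 bases before the start of these genes are shown because the genes change in opposite directions, with searched motifs in capitals. They are RefSeq sequences of assembly GRCr8, not the build of the files, with Cox8c at chr6:127793229-127793378 on the plus strand, Cox8a at chr1:213833624-213833773 on the minus strand and Cox6b2 at chr1:78122721-78122870 on the plus strand.
Cox8c: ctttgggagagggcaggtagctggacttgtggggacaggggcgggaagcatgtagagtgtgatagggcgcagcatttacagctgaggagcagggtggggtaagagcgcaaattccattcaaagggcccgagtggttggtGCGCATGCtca
Cox8a: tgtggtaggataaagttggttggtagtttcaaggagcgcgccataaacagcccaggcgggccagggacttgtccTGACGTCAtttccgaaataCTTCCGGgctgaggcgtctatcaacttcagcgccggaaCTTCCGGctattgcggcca
Cox6b2: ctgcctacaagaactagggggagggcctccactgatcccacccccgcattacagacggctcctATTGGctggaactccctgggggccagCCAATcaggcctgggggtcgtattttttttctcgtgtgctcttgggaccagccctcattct
Cox8c holds GCGCATGC, the core of the site of nuclear respiratory factor 1, a regulator of many respiratory genes, starting 11 bases before the gene start. Cox8a holds TGACGTCA, the cyclic AMP response element, 76 bases before the start, and CTTCCGG, the reverse complement of the ETS motif CCGGAAG that GABP (nuclear respiratory factor 2) binds, at 57 and 19 bases. Cox6b2 holds ATTGG and CCAAT, the CCAAT box in its 2 orientations, at 87 and 61 bases. In windows of 300 bases around the start, searched on both strands, GCGCATGC occurred in 10 of the 71 members with a listed promoter (14.1%) and in 3.75% of 13624 promoters of genes in the files (2.66% of all 27457 listed). CCGGAAG occurred in 23 (32.4%, against 13.01% and 9.22%), TGACGTCA in 3 (4.23%, against 2.59% and 1.91%) and CCAAT in 24 (33.8%, against 37.9% and 37.7%). A match describes letters and not binding.

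The isoforms outside complex IV followed the same order. Cyct, the testis form of cytochrome c, made up 6.68% of the summed mean FPKM of Cyct and Cycs at 8.5 dpp, 10.2% at 14.5 dpp, 74.4% at 24.5 dpp and 87.5% at 53.5 dpp, but 4.26% to 7.01% in the 4 culture groups. Pdha2, the autosomal form of the pyruvate dehydrogenase subunit whose other gene, Pdha1, is X-linked, made up 14.0% of its pair at 8.5 dpp, 32.3% at 14.5 dpp, 91.2% at 24.5 dpp and 97.5% at 53.5 dpp, and 17.3% to 24.0% in culture. From 14.5 to 24.5 dpp, Cyct rose by 4.01 (adjusted p = 1.06e-10) and Pdha2 by 3.22 (adjusted p = 6.22e-10).

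Ndufaf3 and Uqcrfs1, which are not named as testis isoforms, rose over the same ages. Ndufaf3 (gene ID 56769), an early assembly factor of complex I, was at 15.0 and 12.0 FPKM at 14.5 dpp, 215, 276 and 151 FPKM at 24.5 dpp, 402, 444 and 413 FPKM at 30.5 dpp and 350, 326 and 357 FPKM at 53.5 dpp. It rose by 3.85 (SE 0.18, adjusted p = 5.64e-10) and then by 1.01 (SE 0.16, adjusted p = 7.08e-05). All 12 cultured libraries lay between 8.09 and 15.2 FPKM, within or below the values at 8.5 dpp (15.6, 16.5 and 14.6 FPKM). In RefSeq GRCr8 this gene overlaps Impdh2 on the opposite strand, whose group means lay between 30.3 and 56.8 FPKM in all 10 groups. The libraries were stranded, but a strand setting of the quantification is not stated, so that reads of overlapping partners may not be told apart, and 15 of the 81 members have such a partner in the files.

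Uqcrfs1 (gene ID 291103), the Rieske iron-sulfur subunit of complex III, was at 167 and 135 FPKM at 14.5 dpp, 302, 305 and 216 FPKM at 24.5 dpp, 631, 608 and 584 FPKM at 30.5 dpp, 742, 755 and 793 FPKM at 36.5 dpp and 656, 723 and 833 FPKM at 53.5 dpp. In culture it stayed between 136 and 186 FPKM. It had first fallen by 0.64 (SE 0.15, adjusted p = 0.00365) from 8.5 to 14.5 dpp, though this did not pass without 14.5 dpp replicate 2 (-0.48, adjusted p = 0.0718), and then rose by 0.84 (SE 0.15, adjusted p = 2e-04) and 1.16 (SE 0.13, adjusted p = 3.46e-06) in the following steps. Ndufa4l2 (gene ID 100362331), a hypoxia-inducible relative of the complex IV subunit Ndufa4, reached its highest in vivo level late, with 2.27 and 2.14 FPKM at 14.5 dpp, 4.83, 7.24 and 8.01 FPKM at 30.5 dpp and 15.4, 16.4 and 14.7 FPKM at 53.5 dpp. It rose by 1.27 (SE 0.22, adjusted p = 0.000165) from 24.5 to 30.5 dpp and by 0.83 (SE 0.22, adjusted p = 0.0114) from 36.5 to 53.5 dpp, and it overlaps Shmt2 on the opposite strand.

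**Figure D3:**
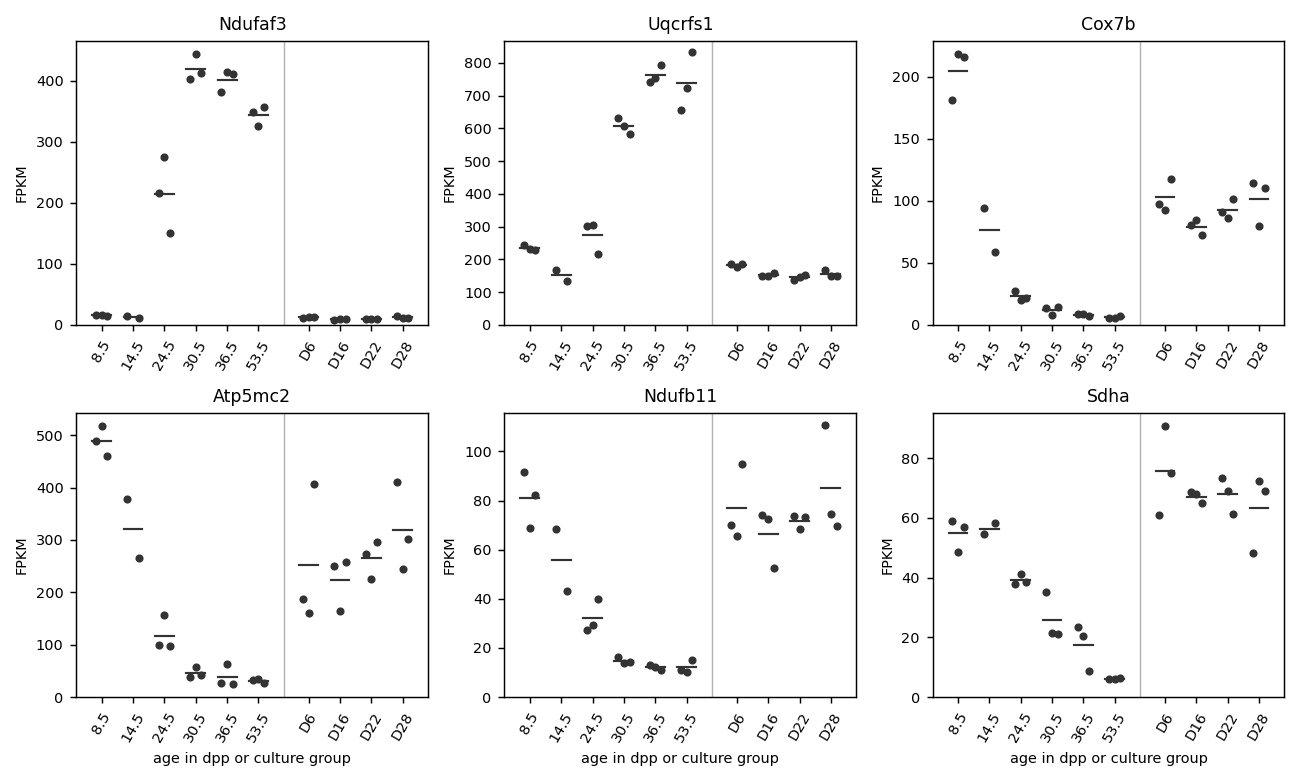
FPKM of 6 members in each library, by age in vivo and by days of culture, on linear axes from 0. Ndufaf3 and Uqcrfs1 climb up to 30.5 and 36.5 dpp and stay low in culture, whereas Cox7b, Atp5mc2, Ndufb11 and Sdha decline in vivo and remain at several times the 53.5 dpp level in the explants.

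The opposite course was most marked for Cox7b (gene ID 303393), an X-linked subunit of complex IV. Cox7b was at 181, 218 and 216 FPKM at 8.5 dpp, 93.9 and 58.8 at 14.5 dpp, 27.6, 20.1 and 21.7 at 24.5 dpp, 8.63, 8.43 and 6.97 at 36.5 dpp and 5.66, 5.39 and 6.95 at 53.5 dpp. It fell by 1.45 (SE 0.24, adjusted p = 0.00033), 1.65 (SE 0.24, adjusted p = 3.52e-05) and 0.93 (SE 0.21, adjusted p = 0.00135) in the first 3 in vivo steps, of which the third did not pass after median-ratio scaling (-0.42, adjusted p = 0.0848). In culture it ranged from 72.3 to 118 FPKM, which is below every 8.5 dpp library and above every library from 24.5 dpp onward. Ndufb11, an X-linked accessory subunit of complex I chosen after its values were seen, went from 91.8, 68.7 and 82.4 FPKM at 8.5 dpp to 11.1, 10.3 and 15.3 FPKM at 53.5 dpp and was at 111, 74.5 and 69.7 FPKM at D28.

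The 3 genes of the ATP synthase c-ring, Atp5mc1, Atp5mc2 and Atp5mc3, encode the same mature protein behind different targeting peptides. Their in vivo levels all declined, but not in the same steps. Atp5mc2 (gene ID 171082) was at 489, 518 and 461 FPKM at 8.5 dpp, 378 and 265 at 14.5 dpp, 98.6, 156 and 96.7 at 24.5 dpp and 32.2, 34.8 and 27.2 at 53.5 dpp, and it fell by 1.46 (SE 0.33, adjusted p = 0.00148) from 14.5 to 24.5 dpp and by 1.32 (SE 0.29, adjusted p = 0.00109) to 30.5 dpp. Atp5mc1 stayed level from 14.5 dpp (105 and 117 FPKM) to 24.5 dpp (117, 100 and 106 FPKM) with a difference of -0.04 (SE 0.29, adjusted p = 0.929), then fell by 0.99 (SE 0.26, adjusted p = 0.00332) and 0.94 (SE 0.26, adjusted p = 0.0138). Atp5mc3 differed by -0.16 (SE 0.25, adjusted p = 0.618) from 14.5 to 24.5 dpp and fell by 1.09 (SE 0.22, adjusted p = 0.000525) to 30.5 dpp. The fall of Atp5mc1 from 24.5 dpp did not pass under median-ratio scaling (-0.46, adjusted p = 0.125), nor did that from 30.5 dpp (-0.67, adjusted p = 0.0753), which was also lost without 30.5 dpp replicate 1 (-0.84, adjusted p = 0.0623) or 36.5 dpp replicate 3 (-0.66, adjusted p = 0.0673). At D28 the 3 genes were at 186, 96.03 and 126, at 411, 244 and 302, and at 226, 237 and 271 FPKM, and each value exceeded every 36.5 dpp library of its gene.

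The bases before the start of 3 members with large changes in opposite directions are given for comparison, with Uqcrfs1 at chr17:34186452-34186601 on the plus strand, Cox7b at chrX:75148886-75149035 on the plus strand and Atp5mc2 at chr7:135678219-135678368 on the minus strand.
Uqcrfs1: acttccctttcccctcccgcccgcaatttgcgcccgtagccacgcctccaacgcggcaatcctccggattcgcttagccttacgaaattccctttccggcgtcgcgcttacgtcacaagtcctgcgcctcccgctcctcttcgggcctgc
Cox7b: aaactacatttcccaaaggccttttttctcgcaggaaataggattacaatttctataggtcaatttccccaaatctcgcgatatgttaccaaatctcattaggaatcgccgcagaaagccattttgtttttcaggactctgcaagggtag
Atp5mc2: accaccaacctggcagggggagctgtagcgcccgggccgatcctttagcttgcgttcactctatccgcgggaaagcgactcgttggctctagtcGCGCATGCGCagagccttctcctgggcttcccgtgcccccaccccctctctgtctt
None of the 4 motifs occurred in the stretches of Uqcrfs1 and Cox7b, and Atp5mc2 holds GCGCATGC and its reverse complement GCATGCGC in overlap, at 56 and 54 bases before the start. The capitals mark these matches.

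Succinate dehydrogenase, complex II, is encoded wholly by nuclear genes, and the FPKM of its 4 subunits declined from 8.5 to 53.5 dpp. Sdha (gene ID 157074), the flavoprotein, was at 59.0, 48.7 and 56.9 FPKM at 8.5 dpp, 54.5 and 58.3 at 14.5 dpp, 37.7, 41.2 and 38.5 at 24.5 dpp, 23.5, 20.3 and 8.67 at 36.5 dpp and 5.98, 6.12 and 6.30 at 53.5 dpp, and 48.3, 72.4 and 69.1 at D28. Its single steps passed the test only from 36.5 to 53.5 dpp (-1.27, SE 0.27, adjusted p = 0.00328). Sdhc (gene ID 289217), a membrane anchor, fell from 120, 120 and 133 FPKM at 8.5 dpp to 26.1, 24.8 and 25.7 FPKM at 53.5 dpp and was at 90.4, 94.7 and 112 FPKM at D28. It passed the test in each of the 4 steps after 14.5 dpp, with -0.55, -0.58, -0.46 and -0.40, of which the last 3 lay at -0.05, -0.19 and -0.01 and did not pass after median-ratio scaling.

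The most abundant members of complexes I, IV and V spanned 1.94-fold (Ndufa6), 1.69-fold (Cox4i1) and 2.11-fold (Atp5f1b) over the 10 group means, against 4.86-fold for Sdhc in complex II and 5.27-fold for Uqcrfs1 in complex III. Ndufa6, the accessory subunit with the highest mean in complex I, was at 118, 124 and 113 FPKM at 8.5 dpp, 65.5 and 85.0 at 14.5 dpp, 133, 150 and 155 at 36.5 dpp and 97.9, 83.0 and 96.2 at D28. Atp5f1b, the highest in complex V, was at 742, 753 and 732 FPKM at 8.5 dpp, 507 and 373 at 14.5 dpp, 394, 273 and 389 at 53.5 dpp and 419, 357 and 468 at D28. Cox4i1, the highest in complex IV, had group means between 264 FPKM at 53.5 dpp and 446 FPKM at 8.5 dpp and passed the test in none of the comparisons.

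The complexes did not change in proportion. FPKM were summed per complex and library over the subunits above 0 in every library, 24 for complex I, 4 for complex II, 7 for complex III, 9 for complex IV and 10 for complex V. The testis isoforms Cox8c and Cox6b2, listed at 0 in some libraries, are not in the sum of complex IV. At 53.5 dpp they were at 1268, 1163 and 924 FPKM and at 484, 504 and 468 FPKM. The fall of complex IV given here is therefore that of the 9 subunits summed, and sums with both isoforms were not made. The sum of complex II went from 321 ± 23.2 FPKM at 8.5 dpp (SD, n = 3) to 175 ± 13.4 at 24.5 dpp and 66.6 ± 4.35 at 53.5 dpp. The sum of the 9 subunits of complex IV went from 2200 ± 84.8 to 1280 ± 157 and 786 ± 131, and that of complex V from 2774 ± 96.4 to 1832 ± 201 and 1025 ± 65.1. By contrast, the sum of complex III went from 869 ± 45.6 at 8.5 dpp to 1257 ± 61.1 at 36.5 dpp and 1128 ± 112 at 53.5 dpp, and every library from 30.5 dpp onward lay above every younger one. This rise was that of Uqcrfs1, since the other 6 subunits of complex III, summed after these values were seen, went from 634 ± 51.3 FPKM at 8.5 dpp to 494 ± 34.7 at 36.5 dpp and 391 ± 28.2 at 53.5 dpp. Complex I was intermediate, with 1356 ± 32.9, 1069 ± 46.0 and 743 ± 86.0 FPKM at 8.5, 24.5 and 53.5 dpp.

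As a share of the 5 sums within each library, which no single factor per library can alter, complex III went from 11.6% ± 0.46 at 8.5 dpp (SD, n = 3) and 13.1% ± 2.18 at 14.5 dpp (n = 2) to 24.4% ± 1.298 at 30.5 dpp and 30.1% ± 1.39 at 53.5 dpp. With Uqcrfs1 left out, the share of complex III was 8.70% ± 0.59 at 8.5 dpp, 13.3% ± 1.19 at 30.5 dpp and 12.99% ± 0.23 at 53.5 dpp. Complex II went from 4.27% ± 0.42 to 1.78% ± 0.07, and complex V from 36.9% ± 0.69 to 27.4% ± 1.205, with no overlap of libraries between 8.5 and 53.5 dpp for any of these. In culture, complex III held 11.3% to 13.3%, complex II 4.63% to 5.48%, complex IV 26.9% to 28.99% and complex V 33.0% to 35.3% of the sum in the 4 group means. The 36.5 dpp values were 27.8% for complex III, 2.00% for complex II, 21.6% for complex IV and 29.01% for complex V. Neither complex IV nor the total includes Cox8c and Cox6b2. At 36.5 dpp these were at 1418, 1420 and 1200 FPKM and at 506, 477 and 429 FPKM, against at most 2.77 and 11.9 FPKM in culture. All shares given here therefore hold only without both isoforms, and shares that include them were not computed.

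**Figure D4:**
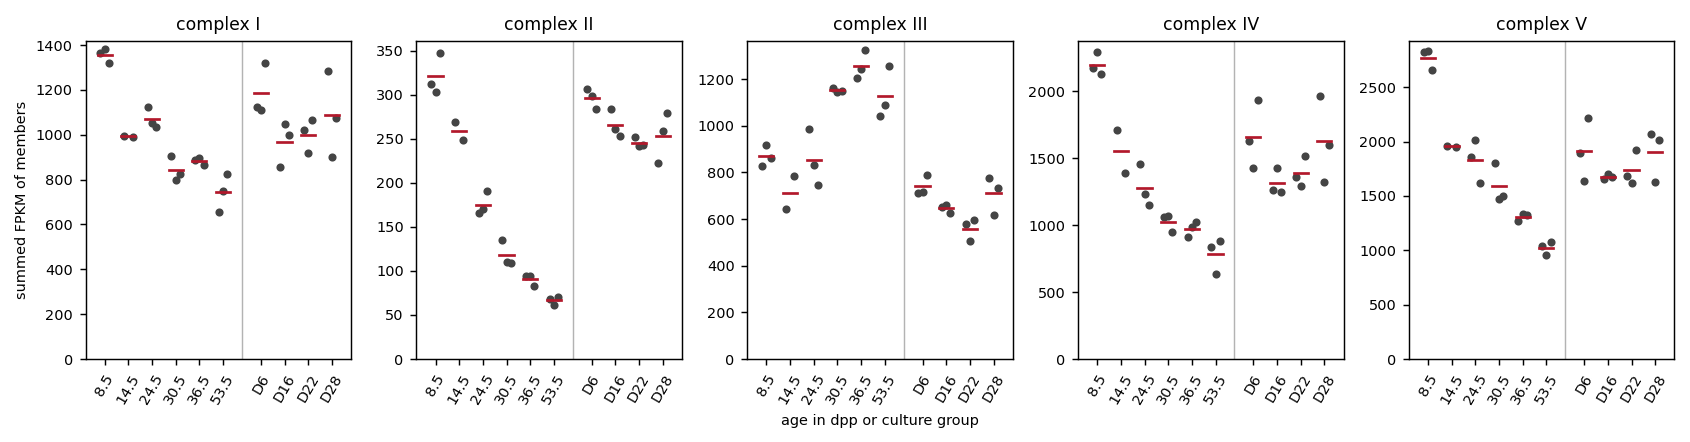
Summed FPKM of the subunits of each complex that are above 0 in every library, one point per library with the group mean as a bar, by age in vivo and by days of culture, on linear axes from 0. The testis isoforms Cox8c and Cox6b2 are not in the sum of complex IV. Complex II falls from 321 to 66.6 FPKM between 8.5 and 53.5 dpp while complex III rises from 869 to 1128 FPKM, of which Uqcrfs1 makes the rise and the other 6 subunits go from 634 to 391 FPKM, and the explants stay near the levels of the 14.5 dpp testis for complexes II and IV.

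Counts of members passing the test (limma on log2(FPKM + 1), adjusted p at most 0.05 over all genes tested) are set beside the share of all genes that passed. Because FPKM are relative to the library's total, the all-gene median difference was not 0 in several comparisons, and the split is also given after median-ratio scaling, in which each library is divided by the median over genes of its ratio to their geometric mean over libraries. The shares of all genes are those without scaling. Splits after a scaling have no all-gene share beside them and are not read as a trait of the members. From 8.5 to 14.5 dpp, 2 of 79 members tested rose (22.7% of all 12531 genes) and 24 fell (15.9%), and after that scaling 1 and 34. Their median difference was -0.32, and that of all genes 0.05. The 2 that rose were Cox8c and Ndufaf8 (0.46), a small assembly factor of complex I. Those that fell included 6 of 10 in complex IV, led by Cox7b, 7 of 24 accessory subunits of complex I, such as Ndufb9 (-0.97), and 5 of 14 in complex V, such as the catalytic β subunit Atp5f1b. By the 2-fold rule of the study, under which the group medians must also differ 2-fold, only 1 rose and 1 fell (14.7% of all genes in either direction). Without 14.5 dpp replicate 2, 10 members passed in all, and Ndufb9 (-0.93, adjusted p = 0.119), Atp5f1b (-0.55, adjusted p = 0.11) and Ndufaf8 (0.31, adjusted p = 0.205) did not. The rise of Ndufaf8 was also lost after median-ratio scaling (0.28, adjusted p = 0.195).

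From 14.5 to 24.5 dpp, when spermatocyte markers rose most, 13 of 79 members rose (23.9% of all genes) and 17 fell (36.2%), and after median-ratio scaling 19 and 11. The median difference was -0.02 for members and -0.13 for all genes, and 4 rose and 6 fell by the 2-fold rule (35.6%). The largest rises were those of Cox8c, Cox6b2 and Ndufaf3, followed by Uqcrc1 (1.15, adjusted p = 0.0384), a core protein of complex III, which did not pass without 14.5 dpp replicate 1 (0.45, adjusted p = 0.487) or without any single library of 24.5 dpp (1.08 to 1.22, adjusted p = 0.0589 to 0.0834). By role, 4 of 7 assembly factors of complex I rose, Ndufaf3, Ndufaf7, Ndufaf8 and Ndufaf6, the last with both libraries listed at 0 at 14.5 dpp and 0.52, 0.496 and 0.605 FPKM at 24.5 dpp, and 3 of 8 in complex III, Uqcrc1, Uqcrfs1 and Uqcr11. In complex IV 5 of 10 fell, Cox7b, Cox8a, Cox4i2, Cox7a2l and Ndufa4, as did 3 of 4 subunits and all 3 assembly factors of complex II. The largest fitted fall, Ndufa11 (-3.41), rests on libraries listed at 0, with 55.4 and 61.7 FPKM at 14.5 dpp and 0, 2.44 and 49.6 FPKM at 24.5 dpp.

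Summed spermatid markers first reached 323 FPKM or more at 30.5 dpp. From 24.5 dpp to this age 4 of 79 members rose (21.1% of all genes), Ndufa4l2, Cox8c, Uqcrfs1 and Ndufaf3, and 30 fell (47.7%), but after median-ratio scaling 19 rose and 7 fell. The median difference was -0.47 for members against -0.32 for all genes, and 3 rose and 12 fell by the 2-fold rule (37.6%). The members that fell included 10 of 24 accessory subunits of complex I, 6 of 10 in complex IV and 4 of 14 in complex V. After median-ratio scaling these became 4 risen and 1 fallen for the accessory subunits, 2 and 2 for complex IV and 3 and 2 for complex V. The largest falls were those of Atp5mc2 and Ndufb6 (-1.19), an accessory subunit of complex I.

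Later steps were smaller. From 30.5 to 36.5 dpp, 3 of 79 rose (10.9% of all genes), Ndufv3 (0.44), Ndufa6 (0.35) and Ndufa13 (0.26), all accessory subunits of complex I, and 10 fell (23.1%), led by Atp5mc1. The rise of Ndufa13 did not pass under 11 of 23 alternatives and that of Ndufa6 under 5 (adjusted p = 0.0821 to 0.436). After median-ratio scaling 10 rose and 1 fell, and after quantile normalization 1 and 7, with medians of -0.20 for members and -0.18 for all genes. None rose and 1 fell by the 2-fold rule (7.49%). Without 30.5 dpp replicate 1, 30.5 dpp replicate 3 or 36.5 dpp replicate 3, 6, 7 and 8 members passed in all. From 36.5 to 53.5 dpp, 2 rose (5.63%), Ndufa4l2 and Ndufa13 (0.29), and 18 fell (32.7%), led by Sdha and Ndufb6 (-0.95), whereas 7 rose and 1 fell after median-ratio scaling and 1 and 5 after quantile normalization. Ndufa13 did not pass under 6 of 23 alternatives (adjusted p = 0.0529 to 0.0933) and Ndufb6 under 5 (adjusted p = 0.051 to 0.178). The median was -0.27 for members and -0.25 for all genes, and by the 2-fold rule 1 fell (6.54%). Without 36.5 dpp replicate 1 or 2, or 53.5 dpp replicate 1 or 2, 8, 10, 11 and 10 members passed.

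**Figure D5:**
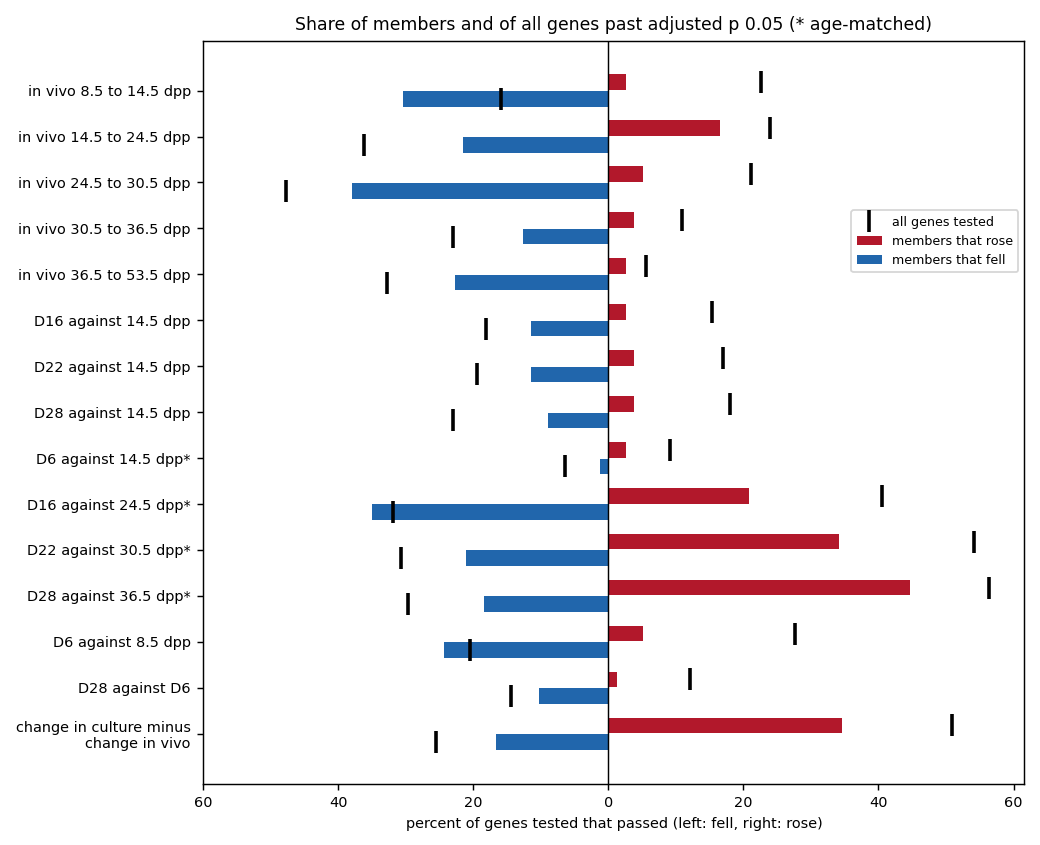
Percent of the members tested that rose or were higher (red bars, right of 0) and that fell or were lower (blue bars, left of 0) in each comparison at an adjusted p of at most 0.05, with black ticks for all genes tested; an asterisk marks comparisons at equal age. Most bars end short of their tick, and the blue bars of 8.5 to 14.5 dpp, D16 against 24.5 dpp and D6 against 8.5 dpp pass theirs.

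In the comparison on which the study centres, cultured explants against the 14.5 dpp testis, few members differed. At D16, 2 of 78 members were higher (15.4% of all 11517 genes) and 9 lower (18.2%), at D22 3 (16.9%) and 9 (19.4%), and at D28 3 (18%) and 7 (23.1%). The median differences of members and of all genes were -0.12 and -0.05, -0.19 and -0.05, and -0.03 and -0.08. After median-ratio scaling 2 were higher and 7 lower at D16, 3 and 7 at D22, and 4 and 4 at D28. By the 2-fold rule, 1 was higher and 1 lower at D16 (13% of all genes in either direction), 2 and 1 at D22 (13.8%) and 2 and 1 at D28 (15.3%). The 3 comparisons share the 2 libraries at 14.5 dpp. Without 14.5 dpp replicate 1, D16 replicate 1 or D16 replicate 3, 6, 7 and 7 members passed at D16, and without 14.5 dpp replicate 2, 5 passed at D28.

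Ndufa4l2 was higher at all 3 times and Cox4i2, the lung form of a complex IV subunit that is favoured at low oxygen, at D28. Ndufa4l2 was at 2.27 and 2.14 FPKM at 14.5 dpp, 5.61, 4.41 and 7.27 at D6, 6.04, 4.83 and 6.81 at D16, 9.48, 5.03 and 4.57 at D22 and 11.4, 4.17 and 5.72 at D28, so that all 12 cultured libraries lay above both control libraries and, at 8.5 dpp, above 3.44, 2.11 and 1.94 FPKM. The difference from 14.5 dpp was 1.09 (SE 0.36, adjusted p = 0.0393) at D16, 1.14 (SE 0.36, adjusted p = 0.0311) at D22 and 1.23 (SE 0.36, adjusted p = 0.0201) at D28. None of the 3 passed when either 14.5 dpp library was left out, with 1.26 (adjusted p = 0.0701) at D28 without replicate 1 and 1.21 (adjusted p = 0.0865) without replicate 2. The difference at D16 was also lost without any 1 of its own libraries (0.999 to 1.21, adjusted p = 0.0562 to 0.103), and that at D22 without D22 replicate 1 (0.85, adjusted p = 0.0859). Ndufv3, an accessory subunit of complex I, was higher by 0.39, 0.36 and 0.26 at the 3 times, and Ndufab1, its acyl carrier protein, by 0.61 at D22. Ndufab1 did not pass under 6 of 17 alternatives (adjusted p = 0.0558 to 0.114), which include leaving out either 14.5 dpp library, nor did Ndufv3 at D28 under 6 of 17 (adjusted p = 0.0525 to 0.093).

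Cox4i2 (gene ID 84683) was at 3.08 and 2.33 FPKM at 14.5 dpp, 6.59, 8.35 and 9.75 at D6, 5.59, 4.35 and 3.85 at D16, 4.99, 4.76 and 3.98 at D22 and 8.80, 3.22 and 5.63 at D28. It was again above both control libraries in all 12, and at 8.5 dpp it was at 4.96, 5.29 and 5.33 FPKM. The difference at D28 was 0.82 (SE 0.29, adjusted p = 0.0465), and it did not pass under 12 of the alternatives tried, for example 0.67 (adjusted p = 0.213) without 14.5 dpp replicate 2. At D6, in a fit of the 2 groups alone, Cox4i2 was higher by 1.31 (SE 0.19, adjusted p = 0.0107). The endothelial markers Pecam1 and Cdh5 summed to 21.3 to 26.7 FPKM at 14.5 dpp, 39.5 to 43.0 at 8.5 dpp, 56.3 to 65.2 at D6 and 37.7 to 60.7 at D28, and the 5 Leydig cell markers to 142 to 300 FPKM at 14.5 dpp and 11.9 to 34.8 in culture. Their part in the levels of Ndufa4l2 and Cox4i2 was not tested.

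The members lower than at 14.5 dpp included assembly factors. Ndufaf8 was at 33.9 and 42.3 FPKM at 14.5 dpp, 16.8, 23.4 and 20.4 at D16, 22.2, 21.7 and 17.98 at D22 and 30.5, 22.1 and 25.8 at D28, with differences of -0.89, -0.85 and -0.53. The last did not pass after median-ratio scaling (-0.46, adjusted p = 0.053) or without 14.5 dpp replicate 2 (-0.37, adjusted p = 0.224). Ndufaf1, an assembly factor of the membrane arm, differed by -0.66, -0.67 and -0.82, of which the first 2 did not pass without 14.5 dpp replicate 2 (adjusted p = 0.0621 and 0.0517), and it overlaps Nusap1, whose mean went from 18.7 FPKM at 14.5 dpp to 3.11 at D28. Cox8c was lower at D16 (-1.54, SE 0.27, adjusted p = 0.00229) but differed by only -0.40 (adjusted p = 0.268) at D22 and -0.09 (adjusted p = 0.816) at D28. None of the 4 subunits of complex II passed at any of the 3 times, with differences from -0.24 to 0.26.

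Against testes of equal age, few members differed at D6 and most at D16, D22 and D28. At D6 3 of 76 members differed from 14.5 dpp, Cox4i2 and Ndufa4l2 (1.05, SE 0.19, adjusted p = 0.0219), both higher (9.13% of all 11309 genes), and Ndufaf5 (-2.36), with 1 D6 library listed at 0, lower (6.38%). By the 2-fold rule the same counts of 2 and 1 were found (7.94%), after median-ratio scaling 3 were higher and 1 lower, after quantile normalization 2 and 2, and without D6 replicate 1 a single member passed. The medians were 0.11 for members and -0.04 for all genes. Without 14.5 dpp replicate 2, neither Cox4i2 (1.16, adjusted p = 0.0554) nor Ndufa4l2 (1.03, adjusted p = 0.091) passed, and without replicate 1 Ndufa4l2 did not (1.08, adjusted p = 0.0685).

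At D16, 16 of 77 members were higher than at 24.5 dpp (40.5% of all 11658 genes) and 27 lower (31.9%), or 12 and 33 after median-ratio scaling, and by the 2-fold rule 7 and 10 (43.6%). The medians were -0.21 for members and 0.12 for all genes. All 4 subunits of complex II were higher, with a median of 0.57, or 2 of 4 with 0.41 after median-ratio scaling, and 6 of 10 in complex IV, led by Cox4i2 (1.83) and Cox7b (1.74, SE 0.14, adjusted p = 5.45e-05). In complex III 5 of 8 were lower (Uqcr11, Uqcrfs1, Uqcrc1, Uqcr10 and Uqcrc2), with a median of -0.48, as were 5 of 7 assembly factors of complex I and 9 of 24 accessory subunits. The lowest were Cox8c (-9.05, SE 0.24, adjusted p = 3.7e-06) and Cox6b2 (-5.65, SE 0.82, adjusted p = 0.000779).

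At D22, 26 of 76 were higher than at 30.5 dpp (54.2% of all 12118 genes) and 16 lower (30.7%), or 13 and 39 after median-ratio scaling, and by the 2-fold rule 17 and 7 (65%). The medians were 0.17 for members and 0.51 for all genes. Cox7b was higher by 2.89 (SE 0.22, adjusted p = 1.29e-05) and Atp5mc2 by 2.52 (SE 0.18, adjusted p = 1.05e-05), and all 4 subunits of complex II were higher, with a median of 0.95, or 2 of 4 with a median of 0.25 after median-ratio scaling. Lower were Cox8c (-9.16), Cox6b2 (-5.93), Ndufaf3 (-5.27) and 4 of 8 in complex III, Uqcrfs1 (-2.06), Uqcrc2, Uqcr11 and Uqcr10.

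At D28, 34 of 76 were higher than at 36.5 dpp (56.4% of all 12210 genes) and 14 lower (29.8%), and 24 and 6 by the 2-fold rule (70.3%). After median-ratio scaling the split turned to 16 and 33, with medians of 0.53 for members and 0.65 for all genes before scaling. Cox7b was higher by 3.496 (SE 0.16, adjusted p = 8.43e-07), Atp5mc2 by 3.10 (SE 0.36, adjusted p = 0.000109), Cox8a by 2.77 (SE 0.13, adjusted p = 8.31e-07) and Sdha by 1.88 (SE 0.35, adjusted p = 0.00151). Atp5mf was at 134, 70.6 and 109 FPKM at D28 and is listed at 0 in all 3 libraries at 36.5 dpp, so that no fold is given, and Atp5pf is listed at 0 in 2 of these libraries. Lower were Cox8c (-8.83, SE 0.20, adjusted p = 2.33e-08), Cox6b2 (-5.79), Ndufaf3 (-4.93, SE 0.14, adjusted p = 8.15e-08) and Uqcrfs1 (-2.29, SE 0.10, adjusted p = 5.35e-07). Complex II was higher in 4 of 4 subunits with a median of 1.38, in 3 of 4 after median-ratio scaling, and complex IV in 7 of 10, or 5 of 10 with 3 lower. Spermatocyte markers summed to 2225 to 2547 FPKM at 36.5 dpp and 29.6 to 38.8 at D28, and the part of cell content in these differences was not tested.

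Culture was also compared with its starting tissue and within itself. Against 8.5 dpp, D6 explants were higher in 4 of 78 members (27.7% of all 11539 genes) and lower in 19 (20.5%), or 3 and 24 after median-ratio scaling, and by the 2-fold rule 3 and 2 (16.1%). The medians were -0.28 for members and 0.06 for all genes. Higher were Ndufa4l2 (0.96), Uqcrc1 (1.01), Sdha (0.44) and Atp5pf, which is listed at 0 in some libraries, and each of the 4 calls was lost without at least 1 single library (3 to 6 of 21 alternatives each). The lowest were Atp5mc2 (-1.08, SE 0.30, adjusted p = 0.00977) and Cox7b (-0.99, SE 0.14, adjusted p = 7.84e-05). From D6 to D28, 1 member rose (12.1% of all genes), Cox8c (0.96, SE 0.27, adjusted p = 0.0197), and 8 fell (14.5%), led by Ndufa10l1 (-0.53) and Atp5f1c (-0.44), of which Atp5f1c did not pass under 14 of 21 alternatives (adjusted p = 0.0505 to 0.148). After median-ratio scaling 2 rose and 4 fell, after quantile normalization 2 and 5, and by the 2-fold rule 1 rose (5.91%). Without D6 replicate 1, 3 members passed, and without D28 replicate 3, 5. The rise of Cox8c did not pass without D6 replicate 3 (0.66, adjusted p = 0.0753), D28 replicate 1 (0.78, adjusted p = 0.0684) or D28 replicate 3 (0.94, adjusted p = 0.0542). Ndufa10 and Ndufa10l1 have like symbols, but their sequences were not compared, and whether reads were divided between them was not tested.

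The change from D6 to D28 was then set against the change from 14.5 to 36.5 dpp in one model, which tests the difference between both changes. The difference was above 0 in 27 of 78 members (50.9% of all 12482 genes) and below 0 in 13 (25.5%), and 9 and 31 after median-ratio scaling, with medians of 0.56 and 0.63 for members and all genes. The largest positive differences in members above 0 in every library were those of Atp5mc2 (3.56, SE 0.62, adjusted p = 0.000436) and Cox7b (3.04, SE 0.29, adjusted p = 5.71e-06). Below 0 were Cox8c (-7.79, SE 0.40, adjusted p = 6.11e-08), Ndufaf3 (-4.83, SE 0.20, adjusted p = 1.04e-08), Cox6b2 (-4.57, SE 1.16, adjusted p = 0.00454, but -3.66 and 0.164 with a pseudocount of 0.1 FPKM), Uqcrfs1 (-2.57, SE 0.15, adjusted p = 1.31e-07) and Ndufa4l2 (-1.35, SE 0.41, adjusted p = 0.0123). All 4 subunits of complex II passed above 0, with a median of 1.27, and none of them did after median-ratio scaling, with 0.33.

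The other genes of oxidative metabolism divided in the same comparisons. From 14.5 to 24.5 dpp, 6 of 17 genes of the citric acid cycle and pyruvate dehydrogenase rose and 5 fell, 3 of 13 regulators of mitochondrial biogenesis and mitochondrial DNA rose and 6 fell, 2 of 7 carriers rose and 4 fell, and 3 of 25 assembly factors with other symbols rose and 7 fell, against 23.9% and 36.2% of all genes. Tfam, which packages mitochondrial DNA, went from group means of 71.3 FPKM at 8.5 dpp to 20.5 at 24.5 dpp and 4.07 at 53.5 dpp and was at 38.6 at D28, and Slc25a4, a widely expressed ADP/ATP carrier, went from 507 to 150 and 29.3 and was at 447 at D28. Vdac2, a pore of the outer membrane, went from 133 to 184 and 274 FPKM and was at 132 at D28, and Polg, the mitochondrial DNA polymerase, from 8.73 to 27.8 and 25.1 and was at 9.75.

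Against 14.5 dpp at D28, 9 of the 25 assembly factors with other symbols were lower and 1 higher, and 7 of the 13 biogenesis genes were lower and none higher, with Nrf1 at -1.12 (adjusted p = 0.000725), against 18% of all genes higher and 23.1% lower. Lyrm7, which matures the Rieske subunit encoded by Uqcrfs1, was lower by 1.16 at D28, and its group means went from 5.33 FPKM at 14.5 dpp to 18.9 at 24.5 dpp and 50.2 at 53.5 dpp and were 1.83 to 2.70 in culture. Of the 7 carriers 2 were higher and none lower, and of the 17 citric acid cycle genes 3 were higher and 4 lower. Against 36.5 dpp at D28, 9 of 17 citric acid cycle genes were higher and 5 lower, 8 and 3 of 13 biogenesis genes, 5 and 2 of 7 carriers and 13 and 5 of 25 assembly factors, against 56.4% and 29.8% of all genes.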

How the data were processed

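Poly(A) RNA of 29 testis and explant libraries was sequenced by the authors as 50 bp single reads from stranded libraries. Per the labels and the study's methods, reads were aligned to rn6 with STAR 2.5.2a and RefSeq genes were quantified with StringTie, and the deposited FPKM values are per transcript length and library total, with no further normalization. FPKM do not keep the depth, which is unknown. Exact zeros were treated as possible failed estimates. The outlier column of 14.5 dpp was left out by its label.

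From these values, log2(FPKM + 1) was tested with limma 3.58.1 (R 4.3.3) in genes whose median reached 0.5 FPKM in 1 or more of the groups fitted. P-values were adjusted by Benjamini and Hochberg's method over all genes tested, and an adjusted p of at most 0.05 was taken as passing. The 6 ages were fitted together, D16, D22, D28 and 14.5 dpp together, 8.5 dpp with the 4 culture times, and each pair of equal age alone. Replicates are separate testes or pools of explants. Where nothing else is said, p-values measure the spread between these samples. The scripts were tested on simulated data. Alternatives were a pseudocount of 0.1, no filter, 2 scalings, a fit of all groups, a replicate block, the 2-fold rule and leaving out each library.

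Named were the genes of isoform pairs, the 2 largest changes per direction and comparison, the most abundant member per complex, members near the 0.5 FPKM limit, those behind counts of 5 or fewer and the leading genes of each pathway list. Any other gene was named after its values were seen. The members, lists and tests were chosen with earlier results of these data known. Promoters and overlaps come from RefSeq GRCr8, in which none of the overlapping pairs with a listed strand lies on the same strand. Results for 1 member are not reported here.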

Additional observations from a re-analysis of the deposited data

Results flagged for a closer look

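The change during culture, from D6 to D28, differed from the change in vivo, from 14.5 to 36.5 dpp, in 40 of 78 members by the test of that difference (limma, adjusted p at most 0.05). Of these, 27 lay above 0 and 13 below, against 50.9% and 25.5% of all 12482 genes, so that the count is not read as a trait of the members. Each value is the change in culture minus the change in vivo on the log2(FPKM + 1) scale, and the directions reported for the complexes depend on the scaling between libraries. Atp5mc2 differed by 3.56 (SE 0.62, adjusted p = 0.000436) and Cox7b by 3.04 (SE 0.29, adjusted p = 5.71e-06). Cox8c differed by -7.79 (SE 0.40, adjusted p = 6.11e-08) and Ndufaf3 by -4.83 (SE 0.20, adjusted p = 1.04e-08). All 4 differences kept their direction and their side of the threshold in every alternative tried for this comparison.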

How the results depend on the processing

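The number of members passing in a comparison stayed within 1.5 times its value under the alternatives tried, except as follows. The 2-fold rule left 2, 10, 15, 1 and 1 members in the 5 in vivo steps in order of age, 2, 3 and 3 at D16, D22 and D28 against 14.5 dpp, 17, 24 and 30 at D16, D22 and D28 against equal ages, 5 at D6 against 8.5 dpp and 1 from D6 to D28, as its construction removes small differences. From 30.5 to 36.5 dpp 8 members passed after quantile normalization, and from 36.5 to 53.5 dpp 8 after median-ratio scaling and 6 after quantile normalization. At D6 against 14.5 dpp, 7 passed in a fit of all 10 groups and 1 among members above 0 in every library, an alternative chosen after seeing the data, which tests fewer members. The cause of the others was not tested. With each library left out in turn, the counts ranged from 10 to 29, 25 to 32, 31 to 40, 6 to 17 and 8 to 20 in the 5 in vivo steps, 6 to 16, 8 to 17 and 5 to 10 at D16, D22 and D28 against 14.5 dpp, 1 to 3, 36 to 48, 38 to 42 and 39 to 45 at the 4 equal ages, 17 to 26 at D6 against 8.5 dpp, 3 to 12 from D6 to D28 and 36 to 42 for the difference of changes. Replicate numbers did not pair the libraries, since same-numbered libraries of different groups deviated together with r of -0.142 to 0.218 (median 0.0166, 126 pairs). With the replicate block, 1 member passed at D6 against 14.5 dpp and no other count moved by over 1.5 times.

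Of 3408 values of the named members under an alternative, 3040 kept direction and side of the threshold, 359 kept direction and no longer passed, and 9 turned, all after median-ratio scaling. These were Ndufaf1 (0.023), Ndufa10l1 (0.22) and Ndufaf8 (0.076) from 24.5 to 30.5 dpp, Ndufv3 (0.067) from 36.5 to 53.5 dpp, Ndufa13 (-0.31) and Cox6a1 (-0.28) at D22 against 30.5 dpp, Ndufa10l1 (-0.40) at D28 against 36.5 dpp, and Ndufaf1 (-0.27) and Ndufv3 (-0.13) in the difference of changes. Depth is unknown, so that the precision of low levels such as those of Cox4i2 could not be stated.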
